A study of Homo sapiens with 21 samples.

Results

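The genes examined were the nuclear genes for subunits of the oxidative phosphorylation (OXPHOS) complexes of mitochondria in the triple-negative breast cancer (TNBC) cell line Hs578T. They were chosen by symbol, as the genes whose symbols follow the naming patterns of complex I to V subunits (NDUFA, NDUFB, NDUFC, NDUFS and NDUFV, SDHA to SDHD, UQCR and CYC1, COX5 to COX8, and ATP5) together with cytochrome c (CYCS), and the rule itself uses no measured value. The patterns took 83 of the 28395 genes in the count table, with 36 for complex I, 4 for complex II, 10 for complex III, 14 for complex IV, 18 for complex V and 1 for cytochrome c. Of these, 78 had enough counts to be tested. The 5 untested members were ATP5MGL, COX6A2, COX7B2, COX8C and NDUFA6, with no library above 12 counts of any of them.

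Complex I (NADH dehydrogenase) and complex II (succinate dehydrogenase) pass electrons from NADH and succinate to ubiquinone, complex III passes them on to cytochrome c, and complex IV (cytochrome c oxidase) hands them to oxygen. Complexes I, III and IV pump protons across the inner membrane, and complex V (ATP synthase) uses the return of the protons to make ATP. Most subunits are encoded in the nucleus, made on cytosolic ribosomes and imported, whereas a small core of complexes I, III, IV and V is encoded in mitochondrial DNA and transcribed there by a separate polymerase. Complex II is wholly nuclear-encoded and is also an enzyme of the TCA cycle.

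Hs578T is an established, mesenchymal-like human TNBC line, labelled wild type here, and all groups were grown in the same medium and collected 8 h after treatment. There were 7 groups of 3 libraries each: the solvent control DMSO, 0.1 µM THZ531 (an inhibitor of the transcriptional kinases CDK12 and CDK13), 3.16 µM lapatinib (an EGFR and HER2 inhibitor), 1 µM nilotinib (a BCR-ABL inhibitor), 0.1 µM THZ531 with 3.16 µM lapatinib, 0.1 µM THZ531 with 1 µM nilotinib, and 1 µM THZ531 alone. Because the study related both kinase inhibitors to THZ531 through the drug pump ABCG2, the comparisons ask whether subunit mRNAs responded to each agent, to the combinations, and differently from the high dose alone. All cells were of 1 line. The labels number the replicates without saying what they are, and the study describes them as independent experiments.

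Libraries held 97612207 to 112229052 counts, and the correlation between replicates of a group was between 0.983 and 0.999. In DMSO the mesenchymal markers were high (VIM, 6657 to 7168 CPM, counts per megacount of library depth), the epithelial markers EPCAM (0.0170 to 0.0518 CPM) and CDH1 (0.169 to 0.247 CPM) were near 0 while KRT8 was not (20.3 to 21.2 CPM), and the T-cell marker CD3E was at 0. With THZ531 and lapatinib, 4 of 7 mesenchymal and basal markers were higher and 1 lower, 1 of 5 tested luminal markers was higher and 2 lower, and PTPRC, a leukocyte marker, was higher (log2 FC 0.74, 0.936 to 1.27 CPM in DMSO), and the part of these markers in the results was not tested. In bulk samples, fewer cells of a kind and less RNA per cell cannot be told apart. CPM here are scaled by TMM (trimmed mean of M values), changes are log2 fold changes (log2 FC), and called means an adjusted p under 0.05 in the quasi-likelihood test of edgeR, adjusted by the Benjamini-Hochberg method over 16036 genes.

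Promoter sequences are shown for members that lie at the ends of the responses described here, so that the genes can be seen beside their values. COX8A is shown as well, although it was at neither end of complex IV. RefSeq promoters of GRCh38.p14, from 250 bases before to 50 bases after the annotated start, were at hand for 67 of the 83 members, with 1 promoter per gene. They are printed 5′ to 3′ on the strand of the gene, with capitals marking matches on either strand to GCGCANGCG (the core of the NRF1 motif), CCGGAAG (the ETS motif, bound by GABPA among others) or AANATGGCG (the YY1 motif). The promoters of NDUFV3 (chr21:42893059-42893358, plus strand) and NDUFB2 (chr7:140696458-140696757, plus strand), the lowest and highest log2 FC of complex I with THZ531 and lapatinib, held none of these letters. SDHA (chr5:218070-218369, plus strand) and UQCRFS1 (chr19:29213102-29213401, minus strand) had the smallest responses in complexes II and III. SDHB (chr1:17053983-17054282, minus strand) is the partner of SDHA in the catalytic part of complex II, and COX8A (chr11:63974370-63974669, plus strand) stands for complex IV.
NDUFV3: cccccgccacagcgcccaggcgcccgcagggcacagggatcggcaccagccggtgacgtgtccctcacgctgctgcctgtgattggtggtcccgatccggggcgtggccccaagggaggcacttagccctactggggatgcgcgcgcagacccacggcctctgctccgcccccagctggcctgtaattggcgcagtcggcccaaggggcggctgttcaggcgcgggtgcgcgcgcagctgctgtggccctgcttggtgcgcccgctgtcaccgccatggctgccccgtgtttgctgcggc
NDUFB2: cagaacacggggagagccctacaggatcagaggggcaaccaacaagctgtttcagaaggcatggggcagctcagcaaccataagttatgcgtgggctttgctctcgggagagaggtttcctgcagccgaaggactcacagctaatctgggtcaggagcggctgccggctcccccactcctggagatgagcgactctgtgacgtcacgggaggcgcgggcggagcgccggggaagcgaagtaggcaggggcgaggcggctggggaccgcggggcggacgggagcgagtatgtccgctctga
SDHA: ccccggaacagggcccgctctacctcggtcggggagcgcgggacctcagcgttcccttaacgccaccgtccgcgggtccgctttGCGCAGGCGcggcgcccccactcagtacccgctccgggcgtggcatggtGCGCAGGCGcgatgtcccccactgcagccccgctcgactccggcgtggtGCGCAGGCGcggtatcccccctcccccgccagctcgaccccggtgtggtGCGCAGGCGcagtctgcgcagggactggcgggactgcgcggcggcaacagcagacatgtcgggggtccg
SDHB: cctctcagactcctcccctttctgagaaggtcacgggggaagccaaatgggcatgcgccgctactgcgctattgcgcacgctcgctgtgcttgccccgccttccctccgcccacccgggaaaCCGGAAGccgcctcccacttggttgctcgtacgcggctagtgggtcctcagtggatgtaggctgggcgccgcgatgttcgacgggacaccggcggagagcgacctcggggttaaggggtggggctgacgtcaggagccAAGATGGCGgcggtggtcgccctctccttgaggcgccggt
UQCRFS1: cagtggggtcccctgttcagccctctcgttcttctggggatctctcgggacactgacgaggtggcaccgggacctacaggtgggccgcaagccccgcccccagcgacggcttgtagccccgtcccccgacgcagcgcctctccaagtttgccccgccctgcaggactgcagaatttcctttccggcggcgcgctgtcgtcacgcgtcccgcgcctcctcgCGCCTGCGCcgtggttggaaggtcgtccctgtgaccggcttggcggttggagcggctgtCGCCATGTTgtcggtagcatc
COX8A: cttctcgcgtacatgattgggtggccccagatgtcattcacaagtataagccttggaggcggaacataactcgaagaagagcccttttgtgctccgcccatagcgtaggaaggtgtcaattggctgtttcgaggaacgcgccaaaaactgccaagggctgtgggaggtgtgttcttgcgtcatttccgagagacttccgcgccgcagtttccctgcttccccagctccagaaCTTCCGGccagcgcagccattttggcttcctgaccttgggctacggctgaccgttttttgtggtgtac

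SDHA carried 4 NRF1 matches, which began 166, 117, 68 and 19 bases before the start. SDHB carried an ETS match that began 128 bases before the start and a YY1 match that began 10 bases after it, UQCRFS1 an NRF1 match 30 bases before the start and a YY1 match 29 bases after it, and COX8A an ETS match 18 bases before it. Over the 67 members with a promoter, 22 (32.8%) held an NRF1 match against 8.05% of the 27305 promoters in the table, 19 (28.4%) an ETS match against 10.7%, and 16 (23.9%) a YY1 match against 3.37%. At least 1 of the 3 motifs was in 41 members (61.2%, against 19.2% of all promoters), and 26 members had none. A match describes the letters only and says nothing of binding in these cells. Among the members called higher with THZ531 and lapatinib (57 with a promoter), the shares were 33.3%, 31.6% and 22.8%. These 57 make up most of the 67, so their shares could hardly differ from those over all members. The 6 tested members with a promoter that were not called higher were too few to compare.

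No subunit mRNA was called with 0.1 µM THZ531, lapatinib or nilotinib alone. With 0.1 µM THZ531, 0 members were higher and 0 lower, where 1.78% and 4.31% of all tested genes were. Members had a median log2 FC of 0.13, and 73 of the 78 were above 0. With lapatinib, 0 were higher and 0 lower (0.256% and 0.0561% of all genes), with a median of -0.02 and 31 of 78 above 0. With nilotinib, 0 were higher and 0 lower (0.243% and 0.0998%), with a median of 0.10 and 72 of 78 above 0. These 3 comparisons share the DMSO libraries.

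At an unadjusted p under 0.05, edgeR left 1 member with 0.1 µM THZ531 (NDUFV3, log2 FC -0.17 ± 0.07 SE, adjusted p = 0.193), 2 with lapatinib (SDHA, log2 FC -0.13, adjusted p = 0.589, and COX6B2) and 1 with nilotinib (COX6B2). COX6B2, the testis isoform of COX6B1, had at most 20 counts in any library, and its adjusted p was 0.513 with lapatinib and 0.235 with nilotinib. DESeq2 called 0 members in each of the 3 comparisons.

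**Figure D1:**
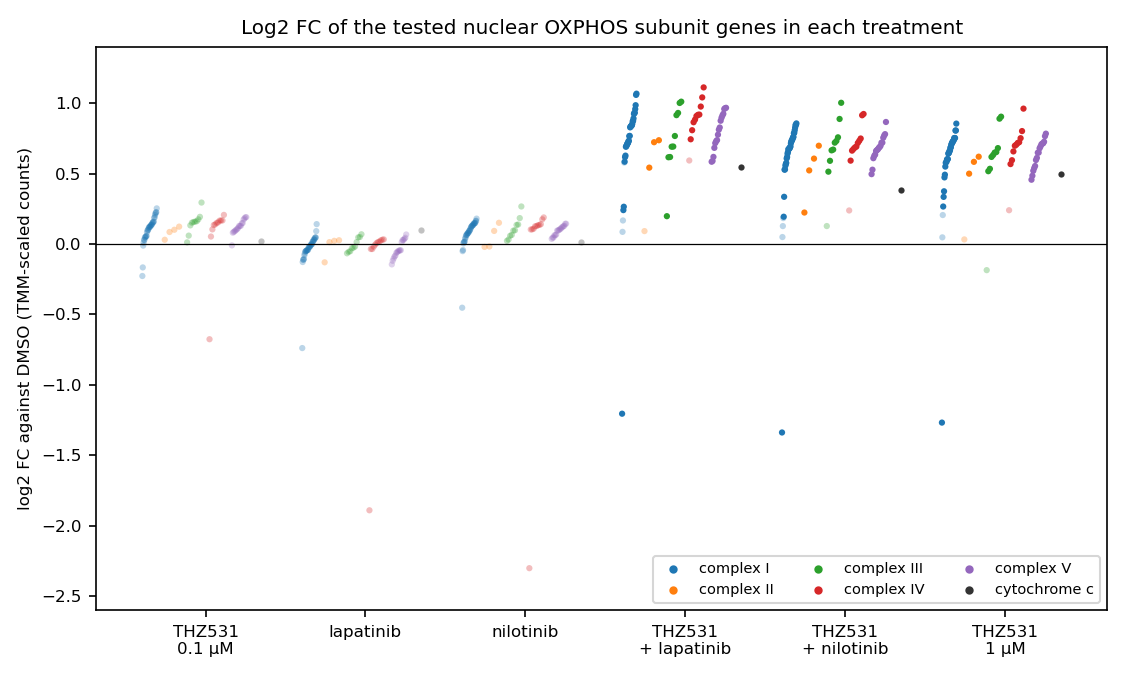
Log2 FC against DMSO (y axis) of the 78 tested members in the 6 treatments (x axis), each point being 1 gene, coloured by complex and sorted within it. Solid points passed an adjusted p of 0.05 and pale points did not: no member passed with 0.1 µM THZ531, lapatinib or nilotinib alone. With THZ531 and lapatinib, 72 were higher under TMM scaling and NDUFV3 was lower, and under scaling to mitochondrially encoded mRNAs 3 were higher and 7 lower.

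Under TMM scaling, nearly all subunit mRNAs rose in the 3 stronger treatments relative to the bulk of genes. With THZ531 and lapatinib, 72 of 78 members were higher and 1 lower, where 34.3% and 37.8% of all tested genes were, and their median log2 FC was 0.77 against -0.01 over all genes. With THZ531 and nilotinib, 72 were higher and 1 lower (33.7% and 37.3% of all genes), with a median of 0.68. With 1 µM THZ531, 71 were higher and 1 lower (33.1% and 36.8%), with a median of 0.65. The 3 comparisons share the DMSO libraries, and 70 members were higher in all 3. With THZ531 and lapatinib, 6 of the 78 members were called with a log2 FC over 1, a share near the 7.90% of all genes. On the other side 1 member lay under -1, where 21.3% of all genes did.

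The gene counts summed over all members were 8355, 8076 and 8988 CPM in the DMSO libraries and 15954, 12998 and 13724 CPM with THZ531 and lapatinib. They were 14940, 13196 and 11886 CPM with THZ531 and nilotinib, and 11633, 13626 and 13556 CPM with 1 µM THZ531. No library of the stronger treatments overlapped the DMSO libraries, and the means were 1.68, 1.57 and 1.53 times the DMSO mean in the same order. With TMM, a value is relative to the bulk of other genes, so a rise cannot be told apart from a smaller fall than theirs. As a share of all counts, members took 0.93% ± 0.051 (SD, n = 3) in DMSO, 1.24% with THZ531 and lapatinib and 1.19% in each of the other strong treatments, and these libraries (1.06% to 1.39%) did not overlap DMSO (0.883% to 0.984%).

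In complex I, 31 of 35 tested members were higher and 1 lower with THZ531 and lapatinib under TMM scaling (34.3% and 37.8% of all genes). The core subunits, which carry the flavin and the iron-sulphur clusters, were higher in 5 of 7 cases with a median log2 FC of 0.62, and the supernumerary subunits, which surround and stabilise the core, were higher in 26 of 28 and lower in 1, with a median of 0.84. The highest was NDUFB2, a supernumerary subunit of the membrane arm, at 24.9, 24.96 and 27.4 CPM in DMSO and 60.9, 50.7 and 50.6 CPM with THZ531 and lapatinib. Its libraries were 53.4, 46.4 and 39.3 CPM with THZ531 and nilotinib and 39.8, 50.6 and 49.6 CPM with 1 µM THZ531. All 9 libraries thus lay above the DMSO range, and the log2 FC were 1.07 ± 0.13 (SE, adjusted p = 2.55e-07), 0.85 and 0.86. Exons of NDUFB2 share 1624 bp with other gene models (ADCK2, NDUFB2-AS1 and BRAF), and the libraries were unstranded, so reads of these genes cannot be told apart there.

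NDUFV3, a small supernumerary subunit at the NADH-oxidising tip of complex I, was the only member lower in all 3 strong treatments. It stood at 40.1, 43.3 and 42.7 CPM in DMSO, and at 35.7, 38.3 and 38.4 CPM with 0.1 µM THZ531. The libraries of THZ531 and lapatinib were 19.5, 17.1 and 18.1 CPM, those of THZ531 and nilotinib 18.0, 16.2 and 15.7 CPM, and those of 1 µM THZ531 16.3, 18.1 and 18.0 CPM. These 9 libraries were all below every other library of the series for this gene. The log2 FC were -1.21 ± 0.072 (SE, adjusted p = 8.79e-12), -1.34 (2.10e-12) and -1.27 (7.40e-12). Its share of all complex I counts, which needs no scaling between libraries, went from 1.73% in DMSO (1.66% to 1.84%) to 0.461%, 0.443% and 0.477%. No exon of NDUFV3 overlaps another gene model.

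NDUFS1, the largest core subunit of complex I, was not called with THZ531 and lapatinib (log2 FC 0.09, 95% interval -0.04 to 0.21, adjusted p = 0.235), nor was the core subunit NDUFV2 (0.17, -0.02 to 0.35, adjusted p = 0.117). Both were named after their values were seen, as was NDUFA3, a supernumerary subunit with 4 to 45 counts per library (0.58, adjusted p = 0.278). NDUFS1 stood at 154, 144 and 151 CPM in DMSO, at 174, 150 and 154 CPM with THZ531 and lapatinib, and at 184, 199 and 185 CPM with 1 µM THZ531, where it was higher (log2 FC 0.34). DMSO and the lapatinib combination overlapped, and the high dose lay above both.

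Complex II consists of the flavoprotein SDHA, the iron-sulphur protein SDHB and the membrane anchors SDHC and SDHD, and its members divided. SDHA stood at 165, 172 and 174 CPM in DMSO, 190, 179 and 175 CPM with THZ531 and lapatinib, 210, 194 and 192 CPM with THZ531 and nilotinib, and 167, 175 and 180 CPM with 1 µM THZ531. Only the nilotinib combination passed the test, at a log2 FC of 0.22 (adjusted p = 0.00102), against 0.09 (95% interval -0.01 to 0.20) and 0.03 for the other strong treatments, and under library-size scaling all 3 values were below 0 (-0.24, -0.08 and -0.23). SDHB stood at 126, 117 and 140 CPM in DMSO and at 247, 192 and 200 CPM with THZ531 and lapatinib. Its log2 FC of 0.74, 0.70 and 0.62 were all called, as were those of SDHC (0.72, 0.61 and 0.58) and SDHD (0.54, 0.52 and 0.50). As a share of complex II counts, SDHA went from 35.2% in DMSO (33.5% to 38.0%) to 26.7%, 29.2% and 27.1%, and SDHB from 26.3% to 31.1%, 30.3% and 30.5%. SDHA shares 1887 bp of exon with another gene model, whereas SDHB and SDHC overlap none, so its counts are less certain in this respect. SDHA also has pseudogene copies, but pseudogene copies were not compared between members.

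In complex III, all 10 members were higher with THZ531 and lapatinib under TMM scaling, where 34.3% of all genes were. UQCRB, a subunit at the ubiquinone-binding site, was the highest, at 259, 264 and 277 CPM in DMSO and 575, 504 and 534 CPM with THZ531 and lapatinib, with log2 FC of 1.01 ± 0.066 (SE, adjusted p = 3.30e-11), 0.89 and 0.89 in the 3 strong treatments. The lowest was UQCRFS1, the Rieske iron-sulphur protein of the catalytic core. UQCRFS1 stood at 149, 130 and 151 CPM in DMSO, 180, 155 and 158 CPM with THZ531 and lapatinib, 163, 157 and 150 CPM with THZ531 and nilotinib, and 122, 119 and 138 CPM with 1 µM THZ531. The groups with lapatinib and DMSO did not overlap, those with nilotinib or the high dose did, and the log2 FC were 0.20 (adjusted p = 0.0404), 0.13 (0.179) and -0.19 (0.0553), the first and second being -0.13 and -0.17 under library-size scaling. Its share of complex III counts went from 10.7% in DMSO (10.2% to 11.3%) to 7.24%, 7.30% and 6.18%, and that of UQCRB from 19.9% to 23.7%, 22.9% and 24.2%. UQCRH, the hinge subunit, and its close copy UQCRHL had log2 FC of 0.93 and 1.00 with THZ531 and lapatinib, and reads of these near-identical genes may be split between them.

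In complex IV, 10 of 11 tested members were higher with THZ531 and lapatinib under TMM scaling, where 34.3% of all genes were. Their median log2 FC was 0.91, the highest of the 5 complexes. COX6C, a small supernumerary subunit, had the highest value of any member. It stood at 81.4, 93.8 and 95.3 CPM in DMSO, 96.2, 90.4 and 94.0 CPM with 0.1 µM THZ531, and 97.7, 89.5 and 89.5 CPM with lapatinib, and the 3 groups overlapped. With both agents together the libraries were 198, 191 and 196 CPM, with nilotinib as partner 181, 175 and 157 CPM, and with 1 µM THZ531 168, 181 and 177 CPM. None of these 9 overlapped the other 12 libraries, and the log2 FC were 1.11 ± 0.074 (SE, adjusted p = 4.68e-11), 0.92 and 0.96.

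Several complex IV subunits exist as isoforms made in different tissues. COX7A1, the heart and muscle form, and COX7A2, the form of other tissues, had log2 FC of 0.92 and 0.87 with THZ531 and lapatinib, 0.69 and 0.59 with THZ531 and nilotinib, and 0.75 and 0.57 with 1 µM THZ531. Their shares of complex IV counts were 1.73% and 8.02% in DMSO and 1.73% and 7.74% with THZ531 and lapatinib. With THZ531 and nilotinib they were 1.66% and 7.24%, and with 1 µM THZ531 1.77% and 7.22%, where the COX7A2 libraries lay below those of DMSO (7.48% to 8.31%) and the COX7A1 libraries overlapped them. COX6A1 (0.81), COX6B1 (0.92) and COX8A (0.91) were higher with THZ531 and lapatinib, whereas few or no reads were counted for their tissue-restricted forms. COX6A2 and COX8C were at 0 in all 21 libraries, and COX6B2 had 0 to 20 counts and was not called (log2 FC 0.59, adjusted p = 0.366, and -0.08 scaled to mitochondrially encoded mRNAs).

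In complex V, all 17 tested members were higher with THZ531 and lapatinib under TMM scaling, where 34.3% of all genes were. Median log2 FC were 0.74 for the catalytic F1 part (5 of 5 higher), 0.85 for the peripheral stalk (4 of 4), 0.72 for the c ring (3 of 3) and 0.96 for the small membrane subunits (5 of 5). ATP5MG, subunit g of the membrane part, was the highest, at 199, 196 and 228 CPM in DMSO and 465, 370 and 382 CPM with THZ531 and lapatinib, and its log2 FC were 0.97 ± 0.13 (SE, adjusted p = 1.16e-06), 0.77 and 0.71. ATP5F1D, the delta subunit of the central stalk, was the lowest, at 62.4, 74.6 and 73.9 CPM in DMSO and 116, 94.5 and 105 CPM with both agents, and its log2 FC were 0.58 ± 0.10 (SE, adjusted p = 3.53e-05), 0.50 and 0.52. Neither gene had a library of the combination within the DMSO range.

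ATP5MC1, ATP5MC2 and ATP5MC3 encode the same mature c-ring protein behind different import sequences. Their log2 FC with THZ531 and lapatinib were 0.72, 0.62 and 0.73. ATP5MC3 went from 213, 208 and 240 CPM in DMSO to 421, 328 and 348 CPM. The shares of complex V counts went from 4.38% to 4.20% for ATP5MC1, from 5.43% to 4.87% for ATP5MC2 and from 7.70% to 7.47% for ATP5MC3. All 3 genes were higher in each of the 3 strong treatments, and none of their exons overlaps another gene model.

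CYCS, which carries electrons from complex III to complex IV and takes part in apoptosis when released, stood at 352, 319 and 355 CPM in DMSO. Its libraries were 565, 467 and 467 CPM with THZ531 and lapatinib, 461, 431 and 447 CPM with THZ531 and nilotinib, and 498, 466 and 489 CPM with 1 µM THZ531. The groups did not overlap DMSO, and the log2 FC were 0.55 ± 0.074 (SE, adjusted p = 1.51e-06), 0.38 and 0.50.

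**Figure D2:**
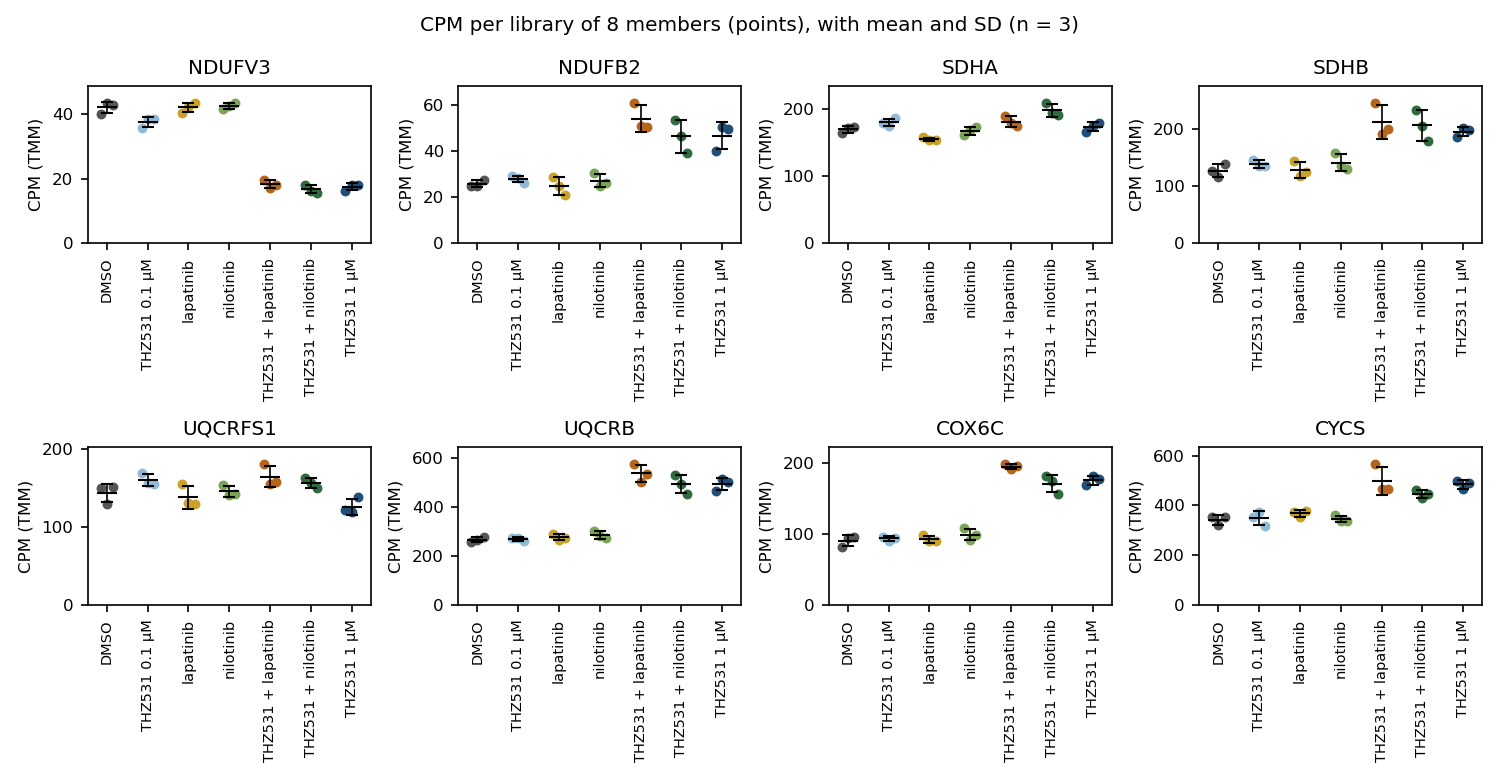
TMM-scaled CPM (y axis, linear from 0) of 8 members in each of the 21 libraries, with bars for the mean and SD of the 3 libraries of a group. NDUFV3 is lower in the 3 strong treatments (15.7 to 19.5 CPM against 40.1 to 43.3 in DMSO), COX6C, UQCRB, NDUFB2, SDHB and CYCS lie higher, and SDHA and UQCRFS1 lie close to DMSO, below it on average in all 3 treatments when scaled to mitochondrially encoded mRNAs.

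Whether members were called higher, and by how much, depended on what counts were scaled to. The TMM factors were 1.09 to 1.11 in DMSO and 0.867 to 0.886 with THZ531 and lapatinib. With library size alone, 67 members were higher and 3 lower in that comparison, with a median log2 FC of 0.44, while the median of all genes moved to -0.34. Relative to the median of all genes, the median of the members was 0.78 higher with THZ531 and lapatinib, 0.69 higher with THZ531 and nilotinib and 0.66 higher with 1 µM THZ531. It moved by no more than 0.01 over the scalings run. A scaling shifts all genes of a library alike, so this difference could hardly move and is no check of the scaling. All genes split into 5500 higher and 6064 lower with TMM in the lapatinib combination, 3357 and 7763 with library size, 6512 and 5302 with upper-quartile scaling, and 850 and 9366 when scaled to mitochondrially encoded mRNAs.

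The 13 mRNAs of mitochondrial DNA, which encode the partner subunits, rose alongside the nuclear mRNAs. With THZ531 and lapatinib, all 13 were higher under TMM, where 34.3% of all genes were, and 8 under library size. Their median log2 FC under TMM was 0.68. They took 1.25% of all counts in DMSO (1.19% to 1.35%), 1.60% with THZ531 and lapatinib (1.49% to 1.76%), 1.56% with THZ531 and nilotinib and 1.53% with 1 µM THZ531. The ratio of nuclear subunit counts to these counts was 0.748 in DMSO (0.652 to 0.818), and 0.783 (0.677 to 0.934), 0.768 (0.632 to 0.912) and 0.789 (0.601 to 0.911) in the strong treatments, whose ranges all overlapped that of DMSO. Scaled to these 13 mRNAs, 3 members were higher with THZ531 and lapatinib (COX6C 0.43, NDUFB2 0.39 and UQCRB 0.33) and 7 lower (among them NDUFV3 -1.89, NDUFS1 -0.60, SDHA -0.59, NDUFV2 -0.51, UQCRFS1 -0.49 and NDUFA8 -0.44), with a median of 0.09. The members listed were named because they were called. With THZ531 and nilotinib 0 were then higher and 6 lower by edgeR, and with 1 µM THZ531 2 were higher and 4 lower.

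**Figure D3:**
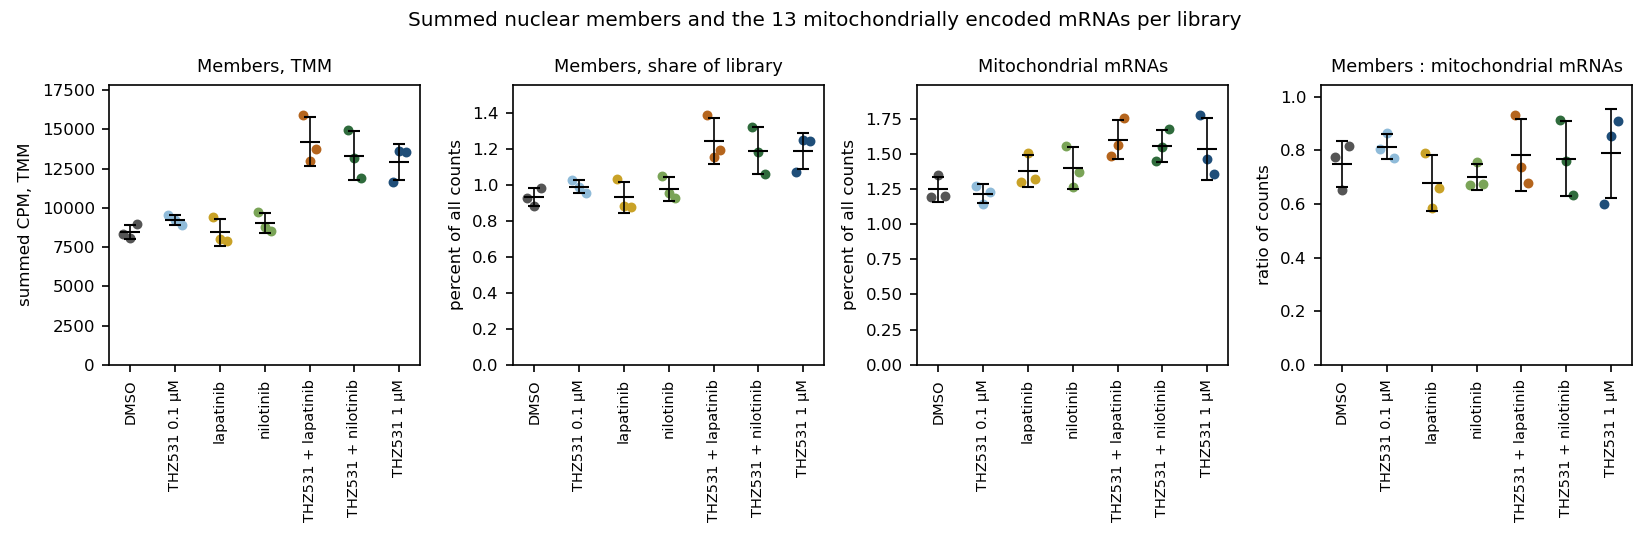
Per library and group: summed CPM of the members under TMM, members as a percent of all counts, the 13 mitochondrially encoded mRNAs as a percent of all counts, and the ratio of both (y axes from 0). The nuclear share was 0.883% to 0.984% in DMSO and 1.06% to 1.39% in the strong treatments, whereas the ratio overlapped in all groups, at 0.652 to 0.818 in DMSO and 0.601 to 0.934 in the strong treatments.

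The combinations were compared with 1 µM THZ531 alone, a comparison in which the THZ531 dose differs. With lapatinib, 4 members were higher and 1 lower than with the high dose (12.8% and 16.1% of all genes), with a median log2 FC of 0.13. UQCRFS1 was higher by a log2 FC of 0.38 (95% interval 0.22 to 0.55, adjusted p = 0.00158), NDUFC2 by 0.34 (0.16 to 0.53), NDUFS3 by 0.34 (0.14 to 0.54) and NDUFA12 by 0.27 (0.07 to 0.46, adjusted p = 0.0499), and NDUFS1 was lower (-0.25, -0.38 to -0.12). These members are listed because they were the ones called. The count was 2 without the first THZ531 and lapatinib library, 1 without the first 1 µM THZ531 library and 1 in a fit of the 2 groups alone. With nilotinib, 2 were higher and 0 lower by edgeR (11.2% and 13.0%): SDHA (0.19, 0.09 to 0.30) and UQCRFS1 (0.31, 0.15 to 0.48, adjusted p = 0.00880), and 1 without the first library of either group.

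Between the combinations, 1 member was higher with lapatinib than with nilotinib and 0 lower (0.730% and 0.736% of all genes). It was NDUFC2, a supernumerary subunit of the membrane arm, at 61.5, 62.7 and 59.9 CPM with lapatinib and 46.9, 49.0 and 40.8 CPM with nilotinib, without overlap (log2 FC 0.43, 95% interval 0.24 to 0.61, adjusted p = 0.0249). DMSO libraries of NDUFC2 were 28.6, 31.4 and 32.9 CPM. The call was lost without replicate 2 or 3 of the lapatinib combination and without replicate 1 or 3 of the nilotinib combination. NDUFC2 shares 483 bp of exon with other gene models, among them the read-through gene NDUFC2-KCTD14 on the same strand.

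An interaction test asked whether the effect of 0.1 µM THZ531 differed in the presence of a kinase inhibitor. With lapatinib the effect was more positive for 70 members and more negative for 1 (28.2% and 32.0% of all genes). The median difference was 0.67 in log2 FC. The counts were 39 and 2 with library size alone, and 3 and 2 (median 0.13) scaled to mitochondrially encoded mRNAs. With nilotinib the effect was more positive for 56 and more negative for 1 (25.6% and 31.2%), with a median of 0.44. The counts were 11 and 2 with library size alone, and 1 and 1 (median 0.01) scaled to mitochondrially encoded mRNAs. The single member with a more negative effect was NDUFV3 in both, with differences of -1.04 ± 0.10 (SE, adjusted p = 2.87e-08) and -1.19 (5.00e-09). The 7 members outside the lapatinib call were NDUFA3, NDUFA8, NDUFA9, NDUFS1, NDUFV2, SDHA and UQCRFS1. The count with nilotinib fell to 32 without DMSO replicate 3 or nilotinib combination replicate 1, to 34 without nilotinib replicate 3 and to 37 without 0.1 µM THZ531 replicate 3.

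Assembly factors, which build the complexes without being part of them, were called in both directions. The lists named here were set with earlier results known, and counts are for THZ531 and lapatinib against DMSO, where 34.3% of all genes were higher and 37.8% lower. Of the assembly factors, 10 were higher and 5 lower of 19 for complex I, 0 and 3 of 4 for complex II, 2 and 2 of 6 for complex III, 10 and 9 of 26 for complex IV, and 2 and 1 of 4 for ATP synthase, so complex III and complex IV factors lay near the shares of all genes. The lowest of each included SDHAF1 (log2 FC -2.42, adjusted p = 1.39e-11), which helps to insert iron-sulphur clusters into SDHB, COA7 (-2.32), UQCC1 (-1.59) and LYRM2 (-1.26), and the highest included SCO2 (1.92), a copper chaperone of complex IV, and NDUFAF2 (1.03). With library size alone the splits became 5 and 7, 0 and 3, 2 and 3, 6 and 14, and 1 and 1, and scaled to mitochondrially encoded mRNAs 0 and 10, 0 and 4, 0 and 4, 1 and 17, and 1 and 1.

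Among 14 regulators of respiratory chain genes, 1 was higher and 9 were lower, with a median log2 FC of -0.51, and with library size alone 1 and 10. PPARGC1A, a coactivator of mitochondrial biogenesis, was the lowest (log2 FC -1.77, adjusted p = 3.47e-08). The single higher one was YY1 (1.01, adjusted p = 1.18e-09). Named after their values were seen, the nuclear receptor ESRRA (-1.55), GABPB1 (-1.44), TFB1M (-1.13) and NRF1 (-0.86) were also lower.

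Of the neighbouring pathways, TCA cycle and pyruvate dehydrogenase genes were higher in 12 and lower in 4 of 17 cases (7 and 5 with library size, 0 and 7 scaled to mitochondrially encoded mRNAs), from PDHX at a log2 FC of -1.12 to PDHA1 at 0.77. Coenzyme Q synthesis genes were higher in 5 and lower in 6 of 13 (1 and 7, and 0 and 10), from COQ7 at -1.37 to COQ8A at 0.90, and these shares (38.5% and 46.2%) were near those of all genes (34.3% and 37.8%). Glycolysis genes were higher in 14 and lower in 0 of 18 by edgeR (13 and 3, and 0 and 4), from SLC2A1 at -0.09 (adjusted p = 0.220) to GAPDH at 0.91. The 4 adenine nucleotide and phosphate carriers were all higher (2, and 0), from SLC25A4 at 0.40 to SLC25A3 at 0.68.

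Ribosomal protein genes gave a reference of other small, abundant mRNAs. Cytosolic ribosomal protein genes were taken by symbol, which also admitted like-named paralogs such as RPL7L1. They were higher in 80 and lower in 1 of 83 cases, with a median log2 FC of 0.84, from RPL7L1 (-1.07) to RPL36A (1.15). The counts were 79 and 1 with library size, and 1 and 2 scaled to mitochondrially encoded mRNAs. Mitochondrial ribosomal proteins were higher in 26 and lower in 25 of 76, with a median of -0.03, from MRPS31 (-2.03) to MRPL21 (0.89), which is 34.2% and 32.9% against 34.3% and 37.8% of all genes, with library size in 17 and 41, and scaled to mitochondrially encoded mRNAs in 0 and 54. Of 5 tested subunits outside the symbol patterns, all 5 were higher (3 with library size, 1 with mitochondrial scaling), from NDUFAB1 at 0.29 (adjusted p = 0.0448) to COXFA4L2 at 1.51.

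**Figure D4:**
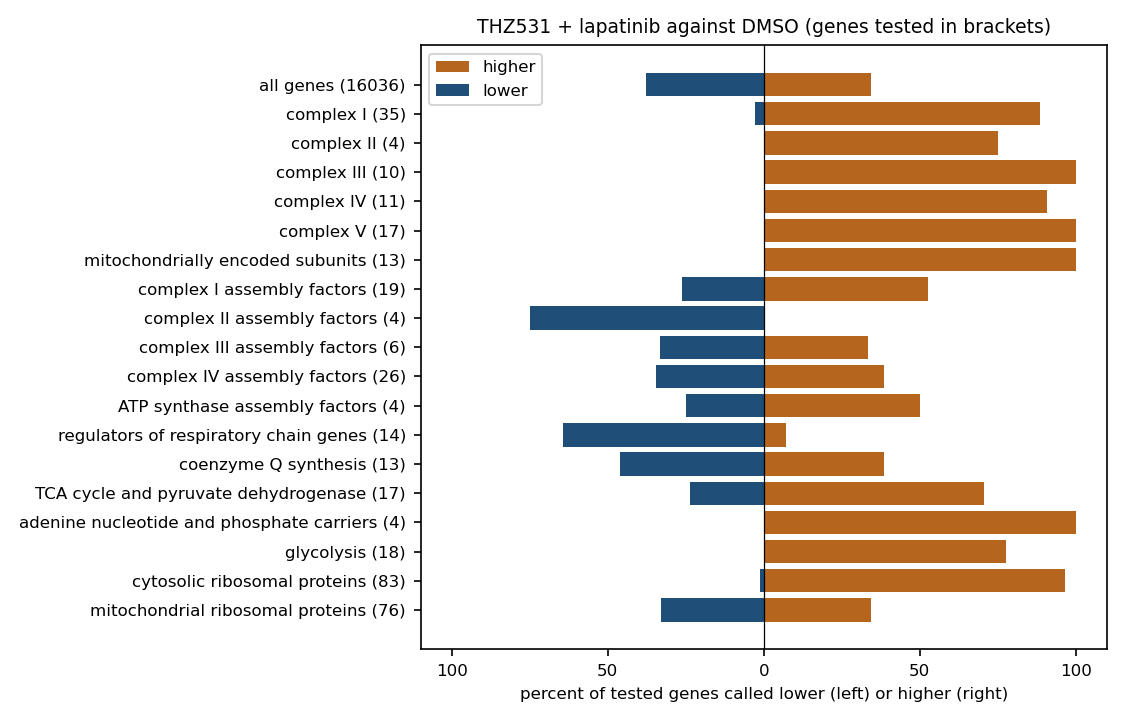
Percent of tested genes called higher or lower with THZ531 and lapatinib against DMSO under TMM scaling (x axis), by list (y axis), with all genes for reference. The subunit lists lie mostly on the higher side, whereas assembly factors, regulators and mitochondrial ribosomal proteins are split or lower; scaled to mitochondrially encoded mRNAs, 3 of the 78 members are higher and 7 lower.

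Most members are short genes, and short genes in general were higher. Over all genes, the median log2 FC with THZ531 and lapatinib was 0.57 for genes spanning under 5 kb, 0.15 for 5 to 10 kb, 0.00 for 10 to 20 kb and -0.16 for 20 to 50 kb. The members in the same classes had medians of 0.85 (16 of 17 higher), 0.78 (22 of 23), 0.84 (22 of 23, with NDUFV3 lower) and 0.63 (9 of 11). Of the 2 members spanning 50 to 100 kb, 1 was higher, with a median of 0.39 against -0.21 over all genes in that class. The 2 members spanning more than 100 kb were both higher, against 27.3% of all genes in that class. Across the 78 members, log2 FC and log10 genomic span had r = -0.29 and rho = -0.27, and across all genes r = -0.21 and rho = -0.19 (n = 15855). With the number of exons, r was -0.35 and rho -0.46 across the members, against -0.03 and -0.09 across all genes (n = 15528). Across the members, these 2 values were -0.15 and -0.22 with THZ531 and nilotinib, and -0.21 and -0.42 with 1 µM THZ531. Genes are not independent replicates, they share the 6 libraries of each comparison, and the part that span had in the result was not tested.

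**Figure D5:**
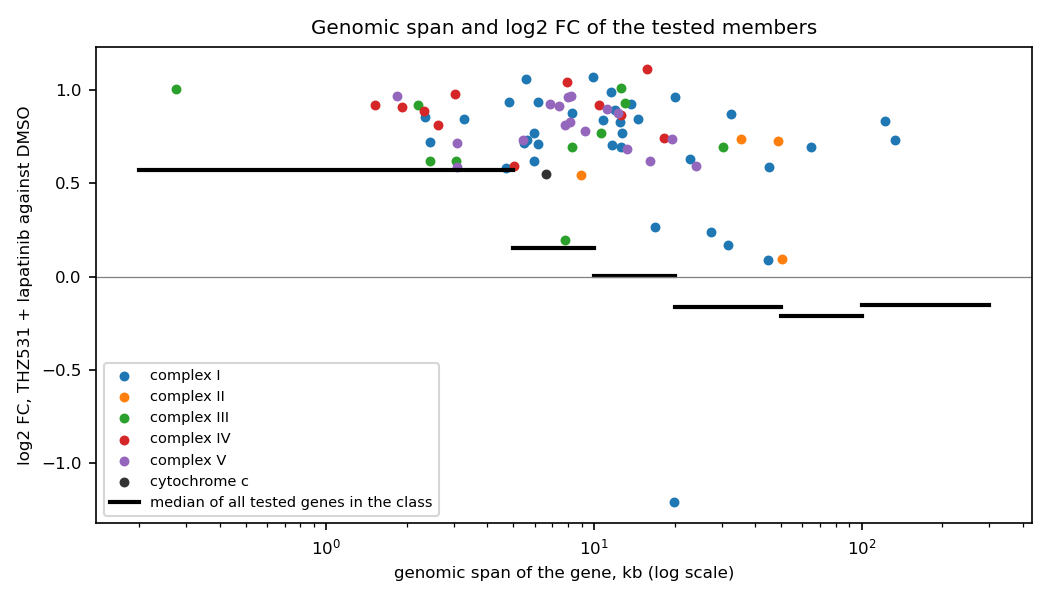
Genomic span (x axis, log scale, in kb) against log2 FC with THZ531 and lapatinib (y axis, TMM scaling) for the tested members, with the all-gene median of each span class. Members lie above the all-gene median in most classes, at 0.85 against 0.57 under 5 kb and 0.63 against -0.16 from 20 to 50 kb, and NDUFV3 lies far below; scaled to mitochondrially encoded mRNAs, the median of all members is 0.09.

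Of the 78 tested members, 39 share exon bases with another gene model on either strand, for which unstranded counts are less certain. Among the 39 that overlap none, 97.4% were higher with THZ531 and lapatinib, 92.3% with THZ531 and nilotinib and 92.3% with 1 µM THZ531, and 1 (2.56%) was lower in each. Over all genes, 34.3%, 33.7% and 33.1% were higher and 37.8%, 37.3% and 36.8% lower in the same order. The subset without overlap was added after the data were seen. All 3 libraries lay above all 3 DMSO libraries for 74 members with THZ531 and lapatinib and below them for 1, where 34.8% and 38.6% of all genes did so. With 0.1 µM THZ531 alone, 24 members lay above DMSO without overlap and 1 below (16.5% and 15.4% of all genes).

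Per kilobase of the canonical mRNA, the members differed widely in level in DMSO. ATP5F1B, the catalytic beta subunit of ATP synthase, was the highest at 425 ± 19.8 CPM per kb (SD, n = 3), followed by NDUFB9 at 362, UQCRH at 342 and COX8A at 328, and the last 3 do not differ beyond their spread. Within the c-ring genes the order was ATP5MC2 (246), ATP5MC1 (194) and ATP5MC3 (85.2). NDUFV3 was among the lowest at 7.34 CPM per kb. ATP5F1E, NDUFA3 and NDUFA6 encode subunits of the complexes made in all tissues, but stood at 2.55, 0.226 and near 0 CPM per kb, with NDUFA6 at 0 in 11 of 21 libraries, so the counts of these genes say little about their mRNA. The canonical transcript may not be the one these cells make, so levels between genes are approximate. Across members, log2 FC with THZ531 and lapatinib had r = -0.02 and rho = -0.15 with the log2 level in DMSO (n = 78).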

How the data were processed

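Hs578T cells were profiled by polyA-selected, unstranded paired-end RNA sequencing, with 7 groups of 3 libraries. The authors deposited raw counts per gene (featureCounts, after alignment to GRCh38 with HISAT2 2.1.0), and 0 columns were left out. Even counts were in excess, so both reads of a pair may have been counted, and halved counts were tried. Counts were filtered by expression and fitted in 1 quasi-likelihood model of all 21 libraries with edgeR 4.0.16 (TMM, R 4.3.3), adjusted by the Benjamini-Hochberg method over 16036 genes. The test was tried on simulated data with 200 changed genes, balanced between higher and lower, in the lapatinib combination alone. Far more genes were called in the real data, so the simulation does not test the scaling used there. The alternatives were other scalings, filters, DESeq2 1.42.0, a replicate block, fits of the compared groups alone, and each library left out. The depth of 97612207 to 112229052 counts sets the counting error, and replicate spread sets the standard errors. Gene models came from GENCODE 44. Multi-mapped read handling is not given in the sources used here, so counts of members with pseudogenes are uncertain.

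The members and gene lists were chosen with earlier results of these data known. The text names the highest and lowest member of each complex with THZ531 and lapatinib, all complex II subunits, the c-ring genes, the complex IV isoforms, UQCRH and its copy, members called with a single treatment, and the ends of each other list. Other genes were named after their values were seen. The NRF1 motif was shortened to its core letters after the first matches were counted, which raised its share among the members and among all promoters. Some items are not reported here.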

Additional observations from a re-analysis of the deposited data

Results flagged for a closer look

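The effect of 0.1 µM THZ531 on subunit mRNAs differed with the partner present, by an interaction term in edgeR. With lapatinib it was higher for 70 members and lower for 1 (28.2% and 32.0% of all genes), with a median difference in log2 FC of 0.675, and NDUFV3 differed by -1.04. With nilotinib it was higher for 56 members and lower for 1 (25.6% and 31.2% of all genes), with a median difference of 0.44, and NDUFV3 differed by -1.19. Leaving out 1 library took the count of higher members with nilotinib as low as 32. With library size alone, the counts were 39 and 2 with lapatinib and 11 and 2 with nilotinib. Scaled to mitochondrially encoded mRNAs, the counts were 3 and 2 with lapatinib and 1 and 1 with nilotinib. Both tests share the DMSO and 0.1 µM THZ531 libraries. Outliers within a group could not be assessed with 3 libraries.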

How the results depend on the processing

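Scaling mattered most. Against DMSO, library size alone gave 3 lower members with THZ531 and lapatinib and 4 with 1 µM THZ531. Scaled to mitochondrially encoded mRNAs, 3 were higher and 7 lower with THZ531 and lapatinib, 0 and 6 with THZ531 and nilotinib, and 2 and 4 with 1 µM THZ531. The interactions had 39 higher and 2 lower (lapatinib) and 11 and 2 (nilotinib) with library size, and 3 and 2, and 1 higher, with mitochondrial scaling. Against 1 µM THZ531, mitochondrial scaling left 0 higher for each combination, upper-quartile scaling gave 1 higher and 1 lower for nilotinib, library size 1 lower for nilotinib, and fits of the compared groups 1 higher and 0 lower for lapatinib and 1 higher for nilotinib. Between combinations, mitochondrial scaling and the fit of those groups gave 0, and with 0.1 µM THZ531 alone such a fit gave 1 higher. The cause was not tested.

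For the members named by the rule, log2 FC that changed sign with a call before or after are given in the order lapatinib combination, nilotinib combination, 1 µM THZ531. With library size, SDHA was -0.24, -0.078 and -0.23, and UQCRFS1 -0.13 in the first. With mitochondrial scaling, SDHA was -0.59, -0.39 and -0.50, ATP5F1D -0.093, -0.12 and -0.0017, CYCS -0.13, -0.24 and -0.047, SDHD -0.14, -0.10 and -0.045, and ATP5MC2 -0.065, -0.089 and -0.052. UQCRFS1 was then -0.49 and -0.50 in the first and second, and SDHC -0.013 and COX7A2 -0.025 in the second. NDUFS1 (-0.60, -0.42, -0.21) and NDUFV2 (-0.51, -0.49, -0.49), named for other reasons, and the uncalled COX6B2 (-0.080, -0.37, -0.29) were also below 0.

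Leaving out 1 library gave 69 to 73 higher members with THZ531 and lapatinib, 72 to 73 with THZ531 and nilotinib, and 71 to 72 higher and 1 to 2 lower with 1 µM THZ531, with 2 lower without DMSO replicate 2, lapatinib replicate 1, THZ531 and lapatinib replicate 1 or 1 µM THZ531 replicate 3. The interactions gave 66 to 71 and 32 to 67, the combinations against 1 µM THZ531 1 to 6 (lapatinib) and 1 to 3 higher and 0 to 1 lower (nilotinib, 1 lower without combination replicate 1), and the combinations against each other 0 to 1. Between the combinations, same-numbered libraries deviated together (r = 0.91, 0.60 and 0.45), and the replicate block again gave 1 higher and 0 lower. In the other comparisons the numbers do not pair the libraries, and over all groups 8 of 21 libraries correlated best with their own number. With the replicate block, 72 members were higher with THZ531 and lapatinib, and 72 higher and 2 lower with 1 µM THZ531. Depth limits COX6B2 and NDUFA3 most.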
